A study of Mus musculus with 25 samples.

Results

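Msx1, Msx2 and the antisense transcript Msx1as were followed through 8 laser captured compartments of the forming mouse palate. The members were taken by gene symbol from the deposited table, and all 3 were found among its 37406 genes. Msx1 and Msx2 encode homeodomain transcription factors, and Msx1as is a noncoding RNA read from the opposite strand of the Msx1 gene. Msx genes are classical targets of BMP signaling, and in tooth and palate mesenchyme Msx1 and Bmp4 maintain each other's expression. Loss of Msx1 gives cleft palate and missing teeth in mice and in people, while Msx2 is best known for its role in the skull vault, teeth and hair.

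The tissue was from E14.5 embryos of wild type CD1 mice, and no group carried an allele or treatment. The medial, lateral, oral and nasal compartments were captured from the anterior palate (13 libraries) and from the posterior palate (12 libraries), with 3 replicates of each compartment and 4 of anterior nasal. RNA was amplified with the NuGEN Ovation V2 system, which does not mark the strand, and libraries were made with Nextera. Compartments were cut by position, so each holds several cell types, and in such bulk samples fewer expressing cells and less RNA per cell cannot be told apart.

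Values are in RPKM, reads scaled by transcript length and by library depth, so levels of different genes are set side by side per length. Read counts were not used here, but low values stepped by whole reads and put the depth of a library at 1.64 to 6.56 M reads (median 3.27 M). The 6 genes that mark palatal mesenchyme summed to 514.2 to 1110 RPKM over the 25 libraries, and none of the 6 was at 0 throughout. The 10 epithelial markers summed to 52.7 to 158.9 RPKM in anterior and 29.4 to 180.1 RPKM in posterior libraries. Alignment names in the study's supplementary tables placed the libraries in 8 sequencing runs, here called A to H. Runs C, G and H held both anterior and posterior libraries. The names of the 6 libraries of runs A, B and C pair WT with a gene name that the labels, which give CD1 wild type for all, do not mention. In run D the name of one anterior nasal library carries the word Zymo and that of the other SDS. Whether either moved a value was not tested.

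In the deposited table Msx1 (gene 17701) lies on chromosome 5 at 38211730 to 38215824, Msx1as (gene 93895) on chromosome 5 at 38211803 to 38213990, and Msx2 (gene 17702) on chromosome 13 at 53562250 to 53568149. The submitters' notes name the build mm9. Msx1 and Msx2 have 2 exons each. In GRCm38 the last exon of Msx1 runs from 37820491 to 37821700, and Msx1as overlaps 1137 bases of it. That stretch is 58.9% of the Msx1 transcript and 52.0% of Msx1as, whose RefSeq symbol is Msx1os.

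Msx1 and Msx2 are alike in the homeobox, the stretch that encodes the DNA-binding homeodomain. The longest run of bases common to the whole transcripts is 22, while reads were 50 bases long, and the authors removed reads with more than 1 alignment. No read of full length is thus identical between these transcripts of Msx1 and Msx2.

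Reads of Msx1 and Msx1as were not kept apart by strand, and their values were mostly not whole reads. With transcript lengths of 1931, 2188 and 2162 bases, the value of Msx2 corresponded to a whole number of reads, within 0.05 reads, in 23 of 25 libraries. The value of Msx1 did so in 2 of the 18 libraries where it was above 0, and that of Msx1as in 9 of 24. In posterior lateral 1 both rows held 9 reads, and in posterior lateral 2 both held 2.5 reads. How far a level belongs to the sense or the antisense transcript therefore cannot be told apart within the overlap. The rest of Msx1as lies in the Msx1 intron, where reads without strand do not tell it from unspliced Msx1 RNA. For this reason the reads of both rows were also joined into 1 value per library, over the 2982 bases that the transcripts cover together. This joined value was chosen after seeing the data and is given beside each result. Its reads were whole in 10 of 25 libraries, so joining the rows did not restore whole reads. Where the remaining fractions came from was not tested.

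Msx1 was read in all anterior compartments and was near or at 0 in the posterior ones. It stood at 2.34, 2.45 and 5.95 RPKM in anterior medial, at 12.1, 13.9 and 11.4 in anterior lateral and at 18.7, 15.02 and 10.2 in anterior oral. In anterior nasal it stood at 0, 10.01, 5.74 and 5.94 RPKM. Anterior nasal 1 was the one anterior library at 0, although it had the highest Msx1as value of all. A value of 0 there allows up to 0.718 RPKM, the worth of 3 reads, which covers counting error only. Posterior values were 0, 0.419 and 0 RPKM in medial, 0.785, 0.543 and 0 in lateral, 0, 0.342 and 1.02 in oral and 0.644, 0 and 0 in nasal. Of the 12 posterior libraries, 6 were at 0 for Msx1.

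Msx1as had a level above that of Msx1 in 11 of 13 anterior libraries. It stood at 13.3, 13.4 and 14.7 RPKM in anterior medial, at 19.5, 29.5 and 26.0 in anterior lateral and at 7.24, 14.45 and 23.9 in anterior oral. In anterior nasal it stood at 41.1, 23.7, 24.99 and 21.2 RPKM. Both exceptions, where Msx1 was higher, were anterior oral libraries 1 and 2. Posterior Msx1as values were 1.51, 0 and 1.18 RPKM in medial, 0.693, 0.480 and 0.589 in lateral, 1.53, 1.69 and 0.480 in oral and 1.06, 1.23 and 0.729 in nasal. Anterior and posterior libraries did not overlap for Msx1as.

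In anterior oral and nasal, and in posterior medial and oral, the joined value varied less between replicates, relative to its mean, than either row. In anterior medial, posterior lateral and posterior nasal it varied more than Msx1as, and in anterior lateral it varied more than Msx1. It was 11.3, 11.4 and 14.6 RPKM in anterior medial, 22.1, 30.6 and 26.4 in anterior lateral and 17.4, 20.3 and 24.1 in anterior oral. In anterior nasal it was 30.2, 23.9, 22.1 and 19.4 RPKM, and the 12 posterior libraries lay between 0.271 and 1.47. By mean ± SD the order was anterior lateral (26.4 ± 4.25, n = 3), nasal (23.9 ± 4.59, n = 4), oral (20.6 ± 3.37, n = 3) and medial (12.4 ± 1.91, n = 3). Lateral, nasal and oral differed from their neighbors in this order by less than their SDs, while all anterior medial libraries lay below all other anterior ones. The posterior order was oral (1.20 ± 0.235 RPKM), nasal (0.876 ± 0.330), medial (0.749 ± 0.431) and lateral (0.718 ± 0.293), with neighbors whose values overlapped. The joined reads numbered 85.2 to 472 per anterior library and 1.90 to 21.6 per posterior library, so the posterior levels rest on few reads.

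**Figure D1:**
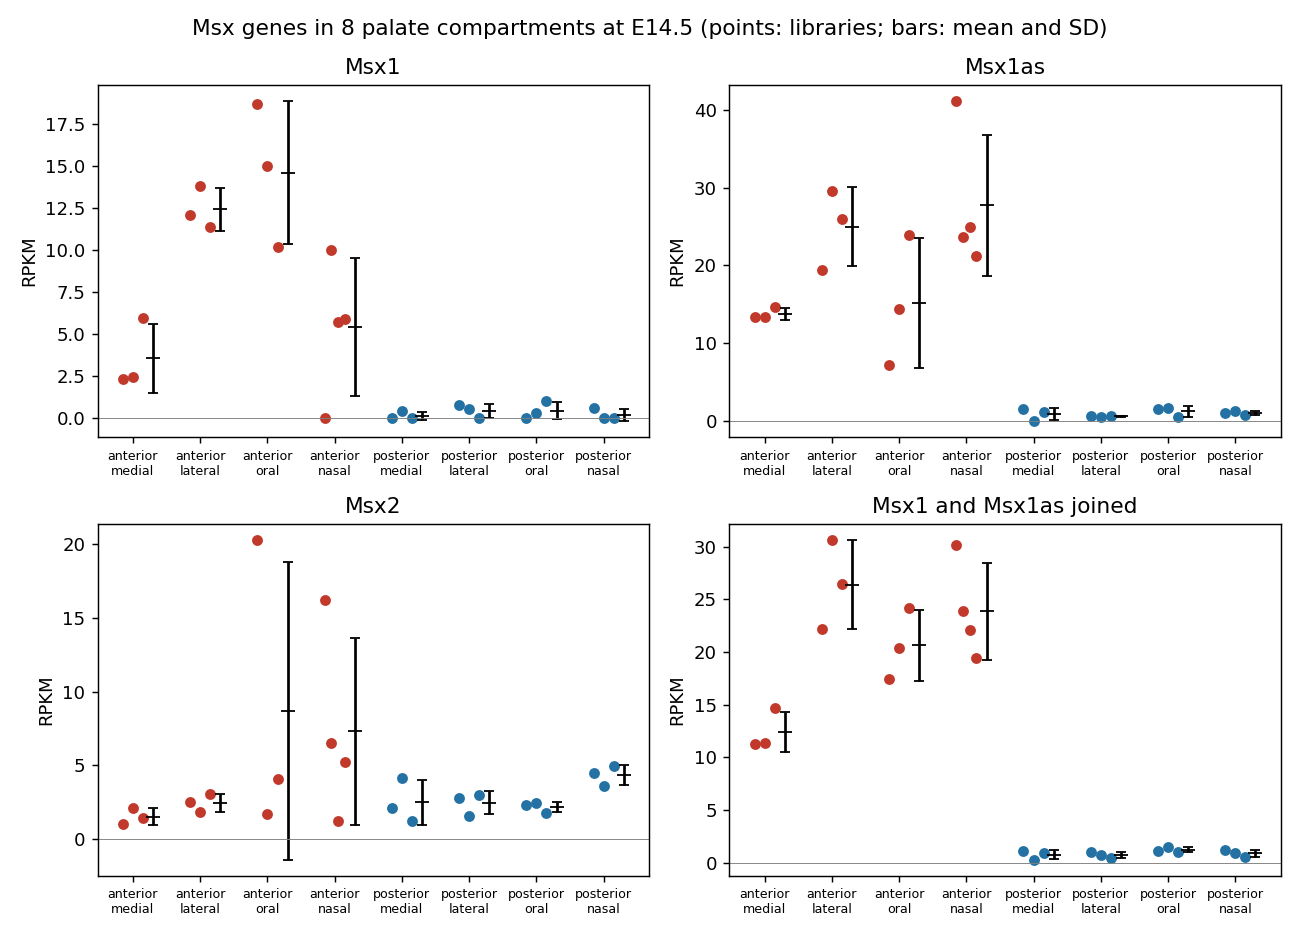
RPKM of Msx1, Msx1as, Msx2 and the joined Msx1 and Msx1as value in each library (points) of the 8 compartments, with the mean and SD beside them. Anterior points (red) of the joined value lie between 11.3 and 30.6 RPKM and posterior points (blue) between 0.271 and 1.47, while Msx2 has its highest points in anterior oral 1 and anterior nasal 1.

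The share of the joined reads that was given to Msx1 differed widely between replicates. In anterior medial it ran from 13.4% to 26.3%, and in anterior lateral from 27.9% to 35.5%. Anterior nasal libraries lay between 0% and 27.2%. The 3 anterior oral libraries differed most, and with shares of 69.5%, 47.8% and 27.4% they had joined values within 17.4 to 24.1 RPKM. In the posterior palate the share ran from 0% to 100%, and posterior medial 2 was the library with all of its 1.90 joined reads on Msx1.

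**Figure D2:**
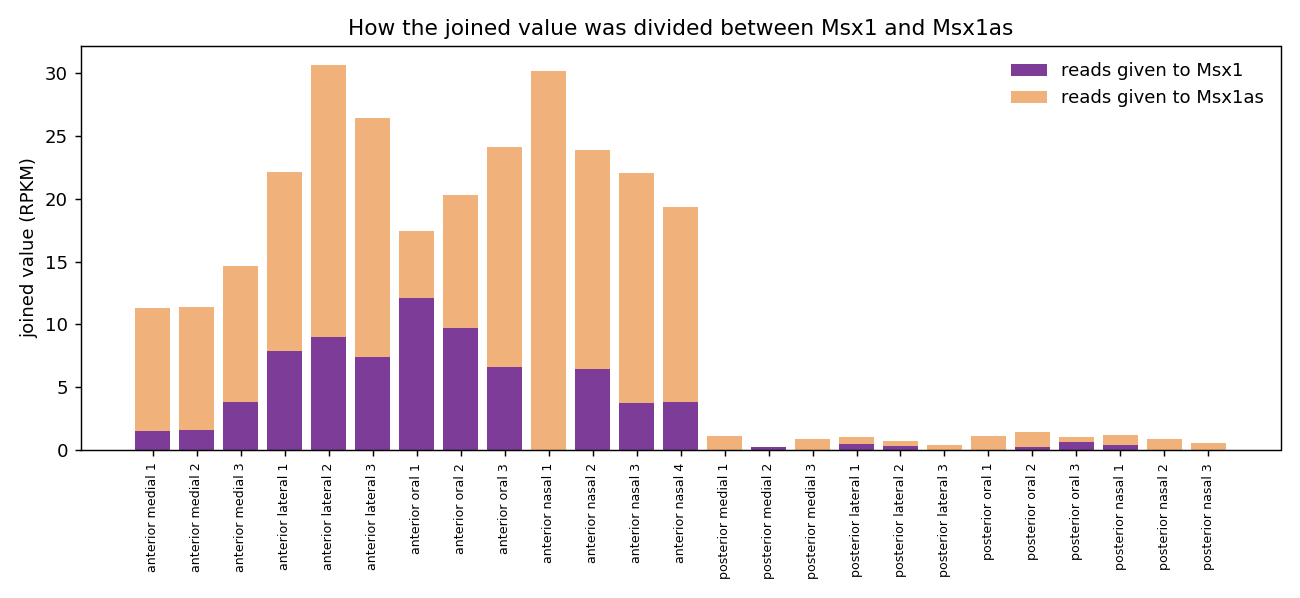
The joined value of each library (bar height, RPKM) divided into the reads given to Msx1 (purple) and to Msx1as (orange). Anterior oral 1 has 69.5% of its joined reads on Msx1 and anterior nasal 1 has 0%, although both bars are tall.

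The first comparison asked which genes differ along the anterior-posterior axis. Msx1 averaged 8.74 ± 5.54 RPKM in anterior libraries (SD, n = 13) and 0.313 ± 0.368 in posterior ones (SD, n = 12). On the log2(RPKM + 0.1) scale the anterior level was higher by 4.45 (SE 0.67, 95% interval 3.09 to 5.82, limma adjusted p = 8.9e-05). The call was lost in limma with a mean-variance trend (adjusted p = 0.121) and with sequencing run in the fit (adjusted p = 0.0723). Msx1as averaged 21.0 ± 8.79 RPKM in anterior and 0.932 ± 0.517 in posterior libraries. Its log2 difference was 4.51 (SE 0.35, 95% interval 3.80 to 5.22, limma adjusted p = 1.71e-09). The joined value, at 21.1 ± 6.26 against 0.886 ± 0.345 RPKM, differed by 4.46 (SE 0.21, 95% interval 4.03 to 4.89, limma adjusted p = 1.78e-14). Of the 8609 genes tested, 3.32% were called and 1.66% were called higher in anterior. Msx1 and Msx1as reached the test's minimum of 10 RPKM in 6 libraries through anterior libraries alone. Their posterior values went no higher than 1.02 and 1.69 RPKM. Values of the domains did not overlap for 0.267% of genes, and Msx1as was one of these, while Msx1 overlapped through anterior nasal 1.

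The same direction held within each sequencing run that held both domains, a comparison added after seeing the data. In run C the joined value was 19.4 and 24.1 RPKM in the anterior libraries and 1.13 and 1.19 in the posterior ones. In run G the 3 anterior libraries lay between 11.3 and 14.6 RPKM and the 5 posterior ones between 0.271 and 1.47. In run H the single anterior library stood at 26.4 RPKM and the 3 posterior ones between 0.432 and 0.704. Log2 differences of the joined value were thus 4.11, 3.77 and 5.36 within these runs. Msx1 and Msx1as did not overlap between domains in any of the 3 runs either. Run C held oral and nasal libraries of both domains. In run G the anterior libraries were all medial and the posterior ones medial, oral and nasal. In run H the anterior library was lateral and the posterior ones lateral and nasal. Compartments were thus not matched between the domains of runs G and H.

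Within the 4 compartments Msx1as was higher in anterior tissue each time. Its log2 difference was 4.55 in medial (limma adjusted p = 0.000954), 5.18 in lateral (adjusted p = 0.000312), 3.52 in oral (adjusted p = 0.0193) and 4.63 in nasal (adjusted p = 0.00073). The background of called genes was 1.66% of 11913 in medial, 0.865% in lateral, 0.512% in oral and 1.91% in nasal. The medial call was lost with the 2 medial compartments fitted alone (limma adjusted p = 0.443), and without posterior medial 2, at 0 for Msx1as, the medial difference was 3.27. The oral call was lost on leaving out anterior oral 2, anterior oral 3, posterior oral 1 or posterior oral 3 (limma adjusted p = 0.0716, 0.103, 0.0523 and 0.189). With sequencing run in the fit the lateral, oral and nasal calls of Msx1as were lost (adjusted p = 0.128, 0.67 and 0.152).

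Msx1 by itself passed in none of the 4 compartments. Its log2 differences were 4.27 in medial, 5.02 in lateral, 5.28 in oral and 3.65 in nasal, with limma adjusted p of 0.136, 0.104, 0.114 and 0.199. Standard errors were 1.25 to 1.33, against 0.34 to 0.36 for the joined value. With a pseudocount of 1 in place of 0.1, Msx1 passed in lateral and oral (limma adjusted p = 0.00285 and 0.00248). Without anterior nasal 1 it passed in nasal, with a log2 difference of 5.18 (limma adjusted p = 0.00685). The joined value differed by 4.04 in medial, 5.07 in lateral, 4.00 in oral and 4.66 in nasal, with limma adjusted p between 6.75e-08 and 2.88e-06. Its medial call was lost with the 2 medial compartments fitted alone (limma adjusted p = 0.085).

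Whether the anterior-posterior difference itself varied among the compartments was tested as an interaction. The limma adjusted p was 0.946 for Msx1, 0.84 for Msx1as, 0.834 for Msx2 and 0.831 for the joined value, where 0.369% of 11913 genes were called. A difference among compartments was therefore not detectable with these libraries.

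**Figure D3:**
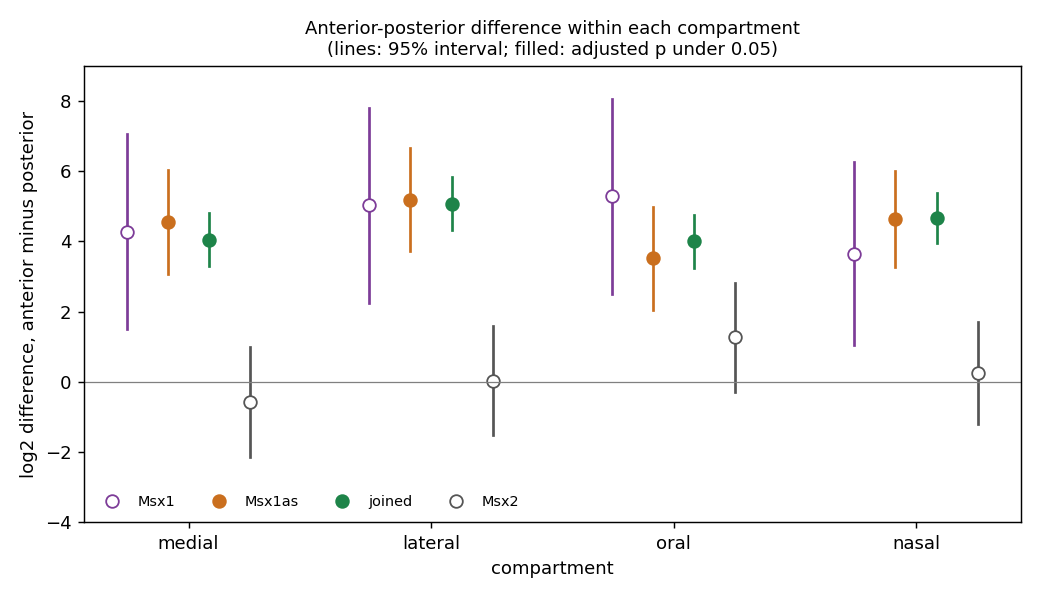
Log2 difference of anterior minus posterior (vertical axis) in each compartment, with 95% intervals, for Msx1, Msx1as, the joined value and Msx2, filled where the adjusted p is under 0.05. The joined value lies between 4.00 and 5.07 with the shortest intervals, and all Msx2 intervals include 0.

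The anterior lateral compartment was compared with the anterior medial one. Msx1 was higher in lateral, with 12.4 ± 1.27 against 3.58 ± 2.06 RPKM (SD, n = 3 each), and the log2 difference was 1.90 (SE 0.33, 95% interval 1.12 to 2.68, limma adjusted p = 0.0311). Msx1as differed by 0.83 (SE 0.17, limma adjusted p = 0.0513), with 24.99 ± 5.10 against 13.8 ± 0.782 RPKM. The joined value was higher in lateral by 1.08 (SE 0.17, 95% interval 0.69 to 1.47, limma adjusted p = 0.0191). Values of lateral and medial did not overlap for Msx1, Msx1as or the joined value, as for 21.3% of the 10428 genes tested, of which 2.51% were called.

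The call for Msx1 was lost on leaving out anterior medial 1 or 2 or any of the 3 lateral libraries (limma adjusted p = 0.0829, 0.109, 0.0938, 0.122 and 0.109). That for the joined value was lost without anterior medial 1, anterior medial 2, anterior lateral 2 or anterior lateral 3 (limma adjusted p = 0.0606, 0.0772, 0.0844 and 0.0948). All 3 medial libraries came from run G and the lateral ones from runs F and H, so run and compartment cannot be told apart here. The 5 cartilage markers summed to 67.6 to 108.9 RPKM in the medial libraries and 20.7 to 21.7 in the lateral ones. The 5 endothelial markers summed to 96.6 to 115.1 RPKM in medial and 132.0 to 150.4 in lateral. The part of these cells in the difference was not tested.

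Between the oral and nasal compartments of the anterior palate no member passed the test. Msx1 was higher in every oral library (10.2 to 18.7 RPKM) than in every nasal one (0 to 10.01), a lack of overlap seen for 3.67% of genes. It was also higher in oral within each of the runs C, D and E. The joined value was higher in oral only in run C, at 24.1 against 19.4 RPKM. It was lower in oral in run D (17.4 against 30.2 and 23.9 RPKM) and in run E (20.3 against 22.05 RPKM). Msx1as went the same way as the joined value in each of these runs. The part of read division in the Msx1 difference was not tested. Log2 differences of oral minus nasal were 2.55 for Msx1 (95% interval -0.78 to 5.88) and -0.97 for Msx1as (95% interval -1.95 to 0.0036). Without anterior nasal 1 the Msx1 difference was 1.01 (SE 0.34), and that of Msx1as was -0.53 without anterior oral 1. The joined value differed by -0.20 (95% interval -0.78 to 0.37). By limma 0 of 10684 genes were called in this comparison (0%), while 2.98% had an unadjusted p under 0.05.

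In the posterior palate Msx1 and Msx1as stayed below the expression minimum of 5 RPKM in 3 libraries and were added to the fits. Lateral minus medial was 1.15 for Msx1 (95% interval -1.34 to 3.64), 0.20 for Msx1as (-2.34 to 2.75) and 0.05 for the joined value (-1.25 to 1.35). Oral minus nasal was 0.91 for Msx1 (95% interval -1.36 to 3.19), 0.14 for Msx1as (-0.85 to 1.13) and 0.46 for the joined value (-0.22 to 1.14). At 1.90 to 21.6 joined reads per library, differences of this size were not detectable. By limma 0 of 10327 genes (0%) were called for lateral against medial, with 1.54% at an unadjusted p under 0.05, and 1.25% of 10589 for oral against nasal.

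Msx2 was read in every library and followed another pattern. It stood at 0.990, 2.12 and 1.43 RPKM in anterior medial, at 2.49, 1.85 and 3.05 in anterior lateral and at 20.3, 1.72 and 4.09 in anterior oral. In anterior nasal it stood at 16.3, 6.50, 1.23 and 5.20 RPKM. The 3 highest of these were all from run D, which held anterior oral 1, anterior nasal 1 and anterior nasal 2 and no posterior library. Posterior values were 2.12, 4.13 and 1.20 RPKM in medial, 2.81, 1.55 and 2.98 in lateral, 2.29, 2.42 and 1.76 in oral and 4.46, 3.60 and 4.98 in nasal. Anterior libraries (5.17 ± 6.10 RPKM, n = 13) and posterior libraries (2.86 ± 1.21 RPKM, n = 12) overlapped, with 4 anterior libraries (20.3, 16.3, 6.50 and 5.20 RPKM) above every posterior one.

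The log2 difference of Msx2 was 0.30 (SE 0.40, 95% interval -0.52 to 1.11, limma adjusted p = 0.787), with Msx2 below the minimum of 10 RPKM in 6 libraries. Without the 3 libraries of run D, left out after seeing the data, it turned to -0.29 (limma adjusted p = 0.752). Within runs the difference was 0.51 in run C, -0.69 in run G and 0.09 in run H, and the domains overlapped in each. In runs G and H the domains were not matched for compartment. Within compartments it was -0.58 in medial, 0.03 in lateral, 1.27 in oral and 0.25 in nasal, with limma adjusted p between 0.696 and 1. The oral difference was 0.30 without anterior oral 1, and the medial one -0.14 without posterior medial 2.

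Run D was high for other genes too. Of 11913 genes with at least 5 RPKM in 3 libraries, 173 (1.45%) had their 3 highest values in these 3 libraries. No other set of 3 libraries was counted, so this share has no baseline and is not shown to be particular to run D. In the remaining anterior oral and nasal libraries Msx2 lay between 1.23 and 5.20 RPKM. Whether run or tissue carried the difference was not tested.

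**Figure D4:**
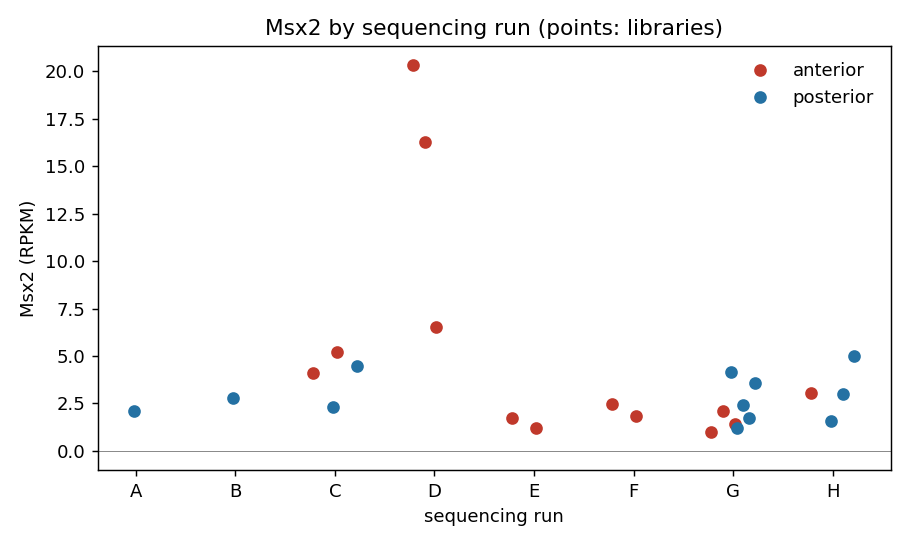
RPKM of Msx2 in each library by sequencing run, with anterior libraries in red and posterior ones in blue. The 3 libraries of run D lie between 6.50 and 20.3 RPKM, above the 22 libraries of the other runs, which reach 5.20.

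Between compartments Msx2 passed no test. In the posterior palate it was 4.35 ± 0.697 RPKM in nasal and 2.16 ± 0.354 in oral (SD, n = 3 each) without overlap, as for 11.9% of genes. The log2 difference of oral minus nasal was -0.98 (SE 0.23, 95% interval -1.50 to -0.45, limma adjusted p = 0.115). The 7 osteoblast markers summed to 380.4 to 552.3 RPKM in the posterior nasal libraries and 86.7 to 108.1 in the posterior oral ones. The part of bone-forming cells in this value was not tested. Lateral minus medial was 0.70 in the anterior palate (95% interval 0.05 to 1.36, limma adjusted p = 0.293) and 0.09 in the posterior palate (-1.14 to 1.33). Oral minus nasal was 0.04 in the anterior palate (-2.21 to 2.28).

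The relative Msx3, known from the dorsal neural tube, was listed at 0 in all but 2 libraries, anterior nasal 1 (0.275 RPKM) and anterior oral 3 (0.0667 RPKM). Genes beside the members were examined as the 2 nearest listed on each side. Near Msx1, Stx18, a syntaxin of vesicle transport, stood at 12.9 RPKM in anterior and 13.5 in posterior libraries (log2 difference -0.05, limma adjusted p = 0.85). Near Msx2, Sptlc1, an enzyme of sphingolipid synthesis, stood at 18.7 and 17.4 RPKM (log2 difference 0.11, limma adjusted p = 0.652). Stk32b, a kinase gene, averaged 3.91 RPKM in anterior and 6.15 in posterior libraries, and Cytl1 0.503 and 0.830, both below the minimum. Gm20052, Gm5449 and Gm18974 were at 0 throughout, and Gm2762 reached 0.791 RPKM. Neither neighbor that could be tested was called.

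Within a domain no relation between the members passed. Over the 13 anterior libraries Msx1 and Msx1as had r = -0.417 (permutation p = 0.124, adjusted 0.619 over 6 relations) and rho = -0.143 (permutation p = 0.639, adjusted 0.865). Without the 2 libraries farthest from the median of Msx1, r was -0.0569. Over the 12 posterior libraries r was -0.400 (permutation p = 0.206, adjusted 0.619) and rho -0.508 (permutation p = 0.0939, adjusted 0.563). Reads of Msx1 and Msx1as were not kept apart by strand, so their r and rho also hold how reads were divided between the rows. These values can therefore not be read as a relation between the sense and the antisense transcript. The 4 relations with Msx2 had r between -0.255 and 0.0270 and adjusted permutation p of 0.675 or more. Without the 2 libraries farthest from the median, the anterior r with Msx2 was 0.404 for Msx1 and 0.449 for Msx1as, and the posterior r was 0.126 and 0.0708.

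The genes whose pattern was most like that of a member were taken by Pearson r over the 25 libraries, among 11913 genes. These r are descriptions, since all points share the split into anterior and posterior libraries. For Msx1as they were Hpse2 (r = 0.950), a heparanase relative, Alx1 (0.940), a homeobox factor of the frontonasal face, Wnt5a (0.936), a secreted Wnt ligand, Col14a1 (0.903), a fibril-associated collagen, and Ambn (0.896), the enamel matrix protein ameloblastin. Hpse2 averaged 17.6 RPKM in anterior and 0.195 in posterior libraries, and Wnt5a 78.2 and 20.8. Within anterior libraries alone r with Msx1as was 0.873 for Hpse2, 0.798 for Col14a1 and 0.231 for Alx1.

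For Msx1 the nearest genes were 9130206I24Rik (r = 0.830), Erc2 (0.772), Hpse2 (0.772), Ppp1r9a (0.769) and Ambn (0.768). Within anterior libraries Hpse2 had r = -0.223 with Msx1 and 9130206I24Rik had 0.174. The joined value was most like Hpse2 (r = 0.974), Alx1 (0.949), Foxd2 (0.929), Ambn (0.927) and 9130206I24Rik (0.917). For Msx2 they were Tdrd1 (r = 0.884), E2f1 (0.869), Klra2 (0.864), Slc10a2 (0.861) and Vps33b (0.859). For each of these the median in run D was above every other library. E2f1, a cell cycle transcription factor, lay between 62.8 and 219.2 RPKM in run D. In the other libraries E2f1 had a median of 20.8 RPKM and reached 73.9, so its values overlapped.

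The pathway around the Msx genes was described over 7 lists of 62 genes, all listed and 40 above the minimum. Of the 40, 4 were called higher in anterior and 5 higher in posterior, against 143 in each direction among the 8609 genes tested. The median log2 difference was 0.03 over the lists and -0.03 over all genes. Of 5 BMP ligands tested, Bmp2 was higher in anterior, at 24.8 ± 7.86 against 14.4 ± 2.47 RPKM (log2 difference 0.73, limma adjusted p = 0.0039). Bmp3, a BMP that opposes the others, was higher in posterior, at 9.80 ± 6.56 against 30.1 ± 19.003 RPKM (-1.75, limma adjusted p = 0.00941). Bmp4, the ligand of the Msx1 loop, was 27.2 ± 11.6 RPKM in anterior and 48.6 ± 41.9 in posterior libraries (-0.57, limma adjusted p = 0.505).

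None of the 7 BMP receptors and signal-carrying Smads tested was called, nor was any of the 4 BMP response genes tested, Id1 to Id4. The receptor Bmpr1a stood at 60.7 ± 9.80 RPKM in anterior and 54.2 ± 7.78 in posterior libraries. Id1 stood at 61.7 ± 23.2 and 53.5 ± 21.4 RPKM. The response genes Bambi, Smad6 and Smad7 were below the minimum and were not tested. Bambi averaged 2.75 RPKM in anterior (1.33 to 3.69) and 5.004 in posterior libraries (3.21 to 7.13). Smad6 averaged 3.88 and 4.55 RPKM, and Smad7 4.61 and 3.798. Response along the axis was thus tested through the Id genes alone. None of 6 Hedgehog pathway genes was called, and Ptch1, receptor and target of the pathway, stood at 69.1 ± 29.2 and 54.7 ± 15.6 RPKM. The ligand Shh, below the minimum, stood at 15.3 to 16.8 RPKM in the 4 libraries of run H and at no more than 0.957 in the others.

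Of 12 palate transcription factors tested, 3 were higher in anterior and 3 in posterior. Shox2, at 129.1 ± 18.9 against 19.4 ± 18.3 RPKM (3.66), and Alx1, at 73.0 ± 19.4 against 1.78 ± 1.58 RPKM (5.77), shared the anterior side with Msx1. Osr1 was also higher there (1.35, limma adjusted p = 0.0465), a call lost without the 4 libraries of run H, which was tried after seeing the data (log2 difference 1.29, limma adjusted p = 0.134). Barx1 (-4.72), Meox2 (-3.57) and Tbx22 (-2.94) were higher in posterior. Of the Distal-less relatives, homeobox genes like Msx, 2 were tested and Dlx1 was higher in posterior, at 1.78 ± 1.51 against 15.4 ± 7.90 RPKM (-3.41). The study named several of these factors from the same libraries, so their direction is not independent evidence.

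**Figure D5:**
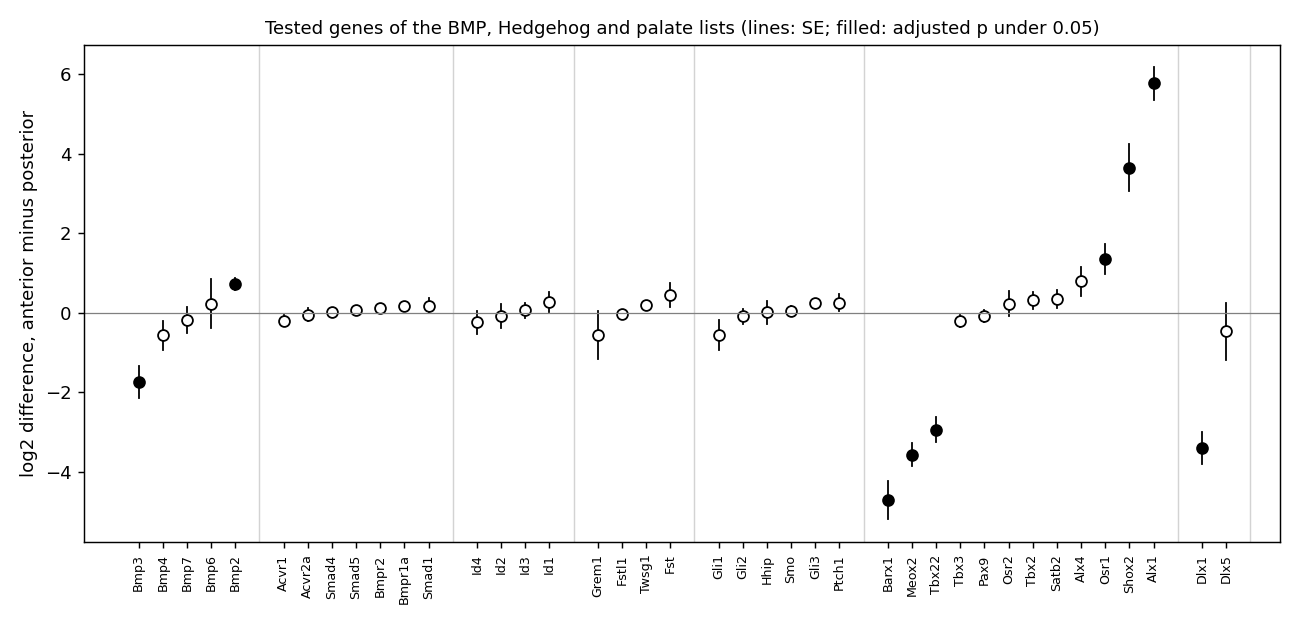
Log2 difference of anterior minus posterior with its SE for the 40 tested genes of the 7 lists (divided by grey lines: BMP ligands, receptors and Smads, BMP response genes, antagonists, Hedgehog, palate transcription factors, Distal-less relatives), filled where the adjusted p is under 0.05. Alx1 and Shox2 lie highest at 5.77 and 3.66 and Barx1 lowest at -4.72, while no receptor, Smad or Id gene is filled.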

How the data were processed

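RNA-seq of 25 laser captured libraries from E14.5 palate was analysed. For 37406 genes the deposited values are RPKM, which the authors computed in GeneSpring from single-end reads of 50 bases after removing duplicate reads and reads with more than 1 alignment; the submitters' notes also name TopHat and mm9. Of these genes, 15007 were at 0 throughout. How reads on overlapping genes were divided is not given in the sources used here. The number of reads behind the values is inferred from the steps of low values (549 of 552 ratios closed), and RPKM are already scaled for it. No scaling was added. The column of anterior medial 2 kept its alignment name and was read as RPKM from its values.

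Groups and replicate numbers came from the labels. The study calls the replicates biological but does not say in the sources used here whether each was a separate animal, so p-values measure the spread between these samples. The pooled anterior-posterior test counts each library of the 4 compartments as a replicate of its domain. Oral and nasal divide the same palatal shelves as medial and lateral, so compartments can share tissue regions. Tests used limma 3.58.1 (R 4.3.3, lmFit and eBayes) on log2(RPKM + 0.1), which understates folds of low genes, with Benjamini-Hochberg adjustment over all genes tested and a threshold of 0.05. The anterior-posterior test took genes that reached 10 RPKM in 6 libraries, and the others those that reached 5 RPKM in 3. Differences within the 4 compartments and their interaction came from 1 fit of all 25 libraries by 8 compartments, the others from the compared libraries alone. A member below the minimum was added. Where Msx1 and Msx1as reached a minimum, they did so through anterior libraries alone. The joined Msx1 and Msx1as value was ranked among all genes without entering their adjustment. The limma fits were tested on simulated data with normal noise, without run effects or divided reads. That tests the code of the fits and does not bear on the members. Relations used 100000 permutations (scipy 1.17.1).

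Members, lists and marker sets were chosen with earlier results of these data known. Genes named were the members, Msx3, the genes of the lists, the 2 nearest listed genes on each side, and the 5 genes most correlated with each member. Of the lists, 1 gene is not reported here. Reference annotation was GENCODE M21 and RefSeq GRCm38.p6, used for names, exons and transcripts but not to convert coordinates. Alternatives were pseudocounts of 1 and 0.01, median centring, quantile normalization, a mean-variance trend, other expression minimums, other sets of libraries in the fit, a replicate block, sequencing run, and leaving out single libraries or runs. Python 3.11.15, pandas 2.3.3 and matplotlib 3.10.9 were used.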

Additional observations from a re-analysis of the deposited data

How the results depend on the processing

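For the joined value the anterior-posterior call held under every alternative run, with log2 differences of 3.51 to 4.63, and for Msx1as with 3.45 to 4.91. The anterior-posterior call of Msx1 was lost with a mean-variance trend (log2 difference 4.45) and with sequencing run in the fit (4.77). With run in the fit Msx1as lost its call in lateral (5.37), oral (3.53) and nasal (4.55). With 2 compartments alone the calls of Msx1as in medial (4.55) and oral (3.52) and of the joined value in medial (4.04) were lost, and with a pseudocount of 0.01 that of Msx1as in oral (3.64). Msx1 gained a call with a pseudocount of 1 in lateral (3.26) and oral (3.45), with 2 compartments alone in lateral (5.02), and without run D in medial (4.27), lateral (5.02) and nasal (4.93).

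Anterior lateral against medial lost its call for Msx1 with no expression minimum, with all 25 libraries in the fit (1.90 each) and with run in the fit (3.41), and for the joined value under the same settings (1.08, 1.08 and 1.89). Msx1as gained a call there with a pseudocount of 1 (0.80), median centring (0.86), quantile normalization (0.87) and a mean-variance trend (0.83).

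Signs turned only for differences that passed no test. Msx2 turned without run D in anterior against posterior (-0.29) and in nasal (-0.73), with run in the fit in nasal (-0.12) and in posterior lateral against medial (-0.47), and with quantile normalization in lateral (-0.11), in anterior oral against nasal (-0.013) and in posterior lateral against medial (-0.49). In posterior lateral against medial, quantile normalization also turned Msx1 (-0.29), Msx1as (-1.73) and the joined value (-1.33), and a pseudocount of 1 turned Msx1as (-0.15) and the joined value (-0.0083). Msx1as turned in posterior oral against nasal with run in the fit (-0.0049), and the joined value in anterior oral against nasal without run D (0.10). The cause was not tested.

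Leaving out 1 library at a time gave ranges of 3.00 to 3.97 for Msx1as within oral, 2.96 to 5.18 for Msx1 within nasal, 3.27 to 5.28 for Msx1as and -0.99 to -0.14 for Msx2 within medial, 0.30 to 2.05 for Msx2 within oral, 1.01 to 3.23 for Msx1 and -1.38 to -0.53 for Msx1as in anterior oral against nasal, and, for anterior lateral against medial, 1.67 to 2.33 for Msx1, 0.70 to 1.00 for Msx1as and 0.96 to 1.20 for the joined value. Ranges that crossed 0 were, for Msx2, -0.25 to 0.22 within lateral, -0.29 to 0.91 within nasal, -0.93 to 0.82 for anterior oral against nasal and -0.32 to 0.53 for posterior lateral against medial. They were -1.08 to 0.93 for Msx1as and -0.47 to 0.38 for the joined value in posterior lateral against medial, and -0.16 to 0.66 for Msx1as in posterior oral against nasal.

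Same-numbered libraries deviated together in 11 of 24 pairs (r above 0.1, range -0.396 to 0.327), and in anterior oral with nasal all 3 pairs did (r 0.116 to 0.242). There the block gave 2.99 for Msx1, -1.09 for Msx1as, 0.04 for Msx2 and -0.30 for the joined value, with no call. In the other comparisons the numbers were not read as pairing. With the replicate number as a block, Msx1 in anterior lateral against medial lost its call (log2 difference 1.90, limma adjusted p = 0.0648), and the block changed no other call of a member. The list counts stayed at 3 or 4 higher in anterior and 5 higher in posterior. The deposited table names the run of 1 library, so the planned fit with run could not be made from it, and the fit with supplementary names was added later. Depth limits the posterior values of Msx1 and Msx1as, at 1.90 to 21.6 joined reads per library.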
